A study of Homo sapiens with 16 samples.

Results

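IBD induction was compared with the static control in Caco-2 cells grown on an intestinal villus-on-chip, which the series title describes as magnetically actuated. Caco-2 cells derive from a human colon carcinoma and differentiate in culture into an enterocyte-like layer. The comparison holds 8 of the 16 RNA-seq libraries of the series, chosen by their labels, 4 labelled as induced with inflammatory bowel disease (IBD) and 4 labelled as static. All 8 come from the one cell line, with no animal, donor or genotype difference between the groups, and the other 8 libraries carry a physiological or a pathological swing label and were not analysed here. What induced the disease state, at which dose and for how long, is not given in any source used here. In the design text the induced group appears as IBD-VOS, a code that no label spells out, and nothing says whether its chips were moved, so induction and movement cannot be told apart in these 8 libraries. The static libraries were taken from the table coded NOS1 by elimination, since no label spells out that code. Only IBD replicate 1 carries a batch number in its labels. Nothing says that the replicates were separate cultures or chips, so the spread that p-values measure here may be technical.

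In the gut epithelium, cytokines and bacterial products bind receptors that free the transcription factor NF-kB from its inhibitors. NF-kB then switches on chemokines that draw neutrophils and other leukocytes, antimicrobial proteins released at the mucosal surface, and its own inhibitors, which end the response. EGR1, which the series title names, is an immediate early transcription factor that growth factors and mechanical stimuli induce within a short time through serum response factor, which binds CArG boxes.

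The libraries held 16307998 to 20609117 counts in IBD and 17537880 to 20021726 in the static control, and mitochondrial genes took 4.48% to 6.72% of them. Levels below are CPM, counts scaled to a common library total with TMM factors, and each gene was tested with edgeR's quasi-likelihood test over 14396 genes, with an adjusted p below 0.05 as the threshold. The static libraries were not alike. On the first principal component, which held 40.1% of the variance, static replicates 1 and 4 lay at 51.0 and 37.5, static 2 and 3 at 7.45 and -10.5, and the IBD libraries between -35.1 and -8.57. The biological coefficient of variation was 0.204 among the 4 static libraries, 0.158 among the IBD libraries and 0.106 among static 2 and 3 alone. Calls of the genes described that change without static 1 and 4 are therefore given both ways. That pair was set apart on these same data, so calls gained without it are no separate support. The cell type label was met by the data in every library: all 12 markers of intestinal epithelium were tested, with EPCAM at 563 to 804 CPM, the microvillus protein VIL1 at 479 to 672 CPM and the intestinal factor CDX2 at 160 to 253 CPM. The gene lengths that the deposited FPKM imply lay within 1% of the whole gene span, introns included, in 85.6% and 85.8% of well-counted genes of the IBD and static tables, and 9193 of the 14033 tested genes found in GENCODE v29 overlap another gene. Strandedness of the counting is not given, so values of overlapping genes are uncertain, and most of them are named as overlapping where they are described. To these come EPCAM, VIL1, RELA, ACTB, TAGLN, TIPARP, ALDH3A1, AKR1C2, AKR1C3, DPP4, OSMR, COL7A1, COL5A1 and BASP1, which also overlap another gene. Of the 665 genes in the 30 lists used here, 63 were listed at 0 in all 8 libraries, 54 of them genes that overlap another gene, among them TAP1, IRF1, JUNB, CCN2 and DUSP1. A 0 of this kind may come from the counting and is not read as absence.

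Promoters of genes on which the results turn are shown first, because many of those that rose in IBD are textbook NF-kB targets and the gene in the title is a textbook target of serum response factor. The windows run from 250 bases before to 50 bases after the annotated start (RefSeq, GRCh38.p14), and positions are counted from 0 at the start. Capitals mark matches to the kB consensus or, in EGR1, to the CArG box, searched on both strands with overlapping matches kept. BIRC3, an inhibitor of apoptosis, has its window at chr11:102317234-102317533, plus strand, with matches at -199 and -135. TNFAIP3, the ubiquitin-editing enzyme A20, lies at chr6:137867009-137867308, plus strand, with matches at -67 and -55. NFKBIA, which encodes the inhibitor IkB-alpha, lies at chr14:35404700-35404999, minus strand, with a match at -81. LCN2, the siderophore-binding lipocalin, lies at chr9:128149203-128149502, plus strand, with a match at -175. CXCL5, a neutrophil-attracting chemokine, lies at chr4:73998628-73998927, minus strand, with 2 overlapping matches from -91 and -90. EGR1 lies at chr5:138465229-138465528, plus strand, with CArG boxes at -105 and -83.
BIRC3: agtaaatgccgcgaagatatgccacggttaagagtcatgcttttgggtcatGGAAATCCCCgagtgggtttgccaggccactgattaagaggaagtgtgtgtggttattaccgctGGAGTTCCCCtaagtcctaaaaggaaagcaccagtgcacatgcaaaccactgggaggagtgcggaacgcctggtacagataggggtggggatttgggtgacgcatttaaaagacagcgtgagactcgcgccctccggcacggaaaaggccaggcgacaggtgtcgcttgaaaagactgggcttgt
TNFAIP3: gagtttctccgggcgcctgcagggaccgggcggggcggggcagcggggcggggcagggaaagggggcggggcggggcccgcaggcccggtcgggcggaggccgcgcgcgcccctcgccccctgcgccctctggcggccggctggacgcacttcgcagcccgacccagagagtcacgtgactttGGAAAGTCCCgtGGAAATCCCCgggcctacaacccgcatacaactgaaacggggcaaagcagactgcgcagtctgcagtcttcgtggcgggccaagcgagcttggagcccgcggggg
NFKBIA: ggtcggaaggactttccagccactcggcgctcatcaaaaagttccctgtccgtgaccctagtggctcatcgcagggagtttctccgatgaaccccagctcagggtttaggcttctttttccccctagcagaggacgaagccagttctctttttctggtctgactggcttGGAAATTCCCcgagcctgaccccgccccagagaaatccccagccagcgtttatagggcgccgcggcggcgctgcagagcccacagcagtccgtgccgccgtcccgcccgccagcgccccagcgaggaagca
LCN2: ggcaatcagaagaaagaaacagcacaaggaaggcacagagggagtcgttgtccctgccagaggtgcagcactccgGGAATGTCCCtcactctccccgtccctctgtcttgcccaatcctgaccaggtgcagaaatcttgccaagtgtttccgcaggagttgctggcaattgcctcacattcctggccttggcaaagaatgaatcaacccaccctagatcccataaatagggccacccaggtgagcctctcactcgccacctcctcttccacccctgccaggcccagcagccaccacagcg
CXCL5: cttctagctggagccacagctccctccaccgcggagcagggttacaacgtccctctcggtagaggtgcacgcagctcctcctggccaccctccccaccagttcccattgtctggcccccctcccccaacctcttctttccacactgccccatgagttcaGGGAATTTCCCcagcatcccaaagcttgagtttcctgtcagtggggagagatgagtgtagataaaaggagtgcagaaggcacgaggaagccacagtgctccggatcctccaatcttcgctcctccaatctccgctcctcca
EGR1: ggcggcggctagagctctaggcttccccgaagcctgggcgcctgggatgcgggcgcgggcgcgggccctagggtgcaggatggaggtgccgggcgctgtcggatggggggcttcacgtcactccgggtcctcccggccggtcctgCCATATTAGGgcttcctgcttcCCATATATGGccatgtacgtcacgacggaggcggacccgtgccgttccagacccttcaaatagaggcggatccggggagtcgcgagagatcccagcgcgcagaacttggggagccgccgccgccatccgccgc

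The kB consensus was present in 11.3% of 35116 RefSeq promoter windows. Of the 22 genes of the chemokine, cytokine, NF-kB and mucosal defence lists that were higher in IBD, 15 had a window, and 8 of these (53.3%) held a match. The windows of PIGR, MMP7, ICAM1, IL1B, IKBKE, TNIP1 and CEACAM7 held none, while the kB windows printed above were all taken from those with a match. Of the 39 tested members of the same lists that did not pass, 33 had a window, and 11 (33.3%) held a match. CArG boxes were present in 1.29% of all windows. The 4 lists were written around known NF-kB genes and targets, so a share above that of all windows was likely whatever their expression. The share over all windows also covers genes not tested, while each list gene counted with a single window. A match describes letters in this window and does not show binding.

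Of the 14396 genes, 233 passed the threshold (1.62%), 138 higher in IBD (0.959%) and 95 lower (0.66%). In such bulk libraries fewer cells of a type and less RNA per cell cannot be told apart. Of these, 70 and 31 changed at least 2-fold, 213 were protein-coding, and 137 overlap another gene. The 4 IBD libraries lay wholly above or below the 4 static libraries in 232 of the 233, against 10.3% of all tested genes (5.26% above and 5.08% below). The genes were called on these same values, so this share is no separate support for the calls. Rises outweighed falls among the large changes. The largest changes were taken among genes past the threshold whose mean log2 CPM reached 2 and whose group ranges did not overlap. Among these, the 12 largest rises were LCN2, CCL2, SAA1, MIR3142HG, PIGR, BIRC3, CEACAM7, ADGRG7, PI3, C3, NEURL3 and BNIP5. The 12 largest falls were ALPP, CYP1A1, EGR1, ALPG, FGG, S100P, KCNK15, CCN1, FGA, AKR1C2, SLC6A9 and ZBTB47. The count of genes past the threshold moved with single libraries. It was 110, 105 and 86 without IBD 1, 3 and 4, and 499 without IBD 2. It was 114 and 123 without static 2 and 4, and 592 without static 3, of which 418 were lower in IBD. As a share of all tested genes, 0.549%, 2.29%, 0.422% and 0.381% were higher without IBD 1 to 4 in turn, and 0.757%, 0.442%, 1.19% and 0.571% without static 1 to 4. The shares lower were 0.206%, 1.1%, 0.293% and 0.204% without IBD 1 to 4 and 0.523%, 0.333%, 2.86% and 0.275% without static 1 to 4, and list counts with a library left out are to be read against these. Without static 1 and 4 together 171 genes passed, 107 higher (0.723% of 14792) and 64 lower (0.433%), and 115 of them were among the 233.

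**Figure D1:**
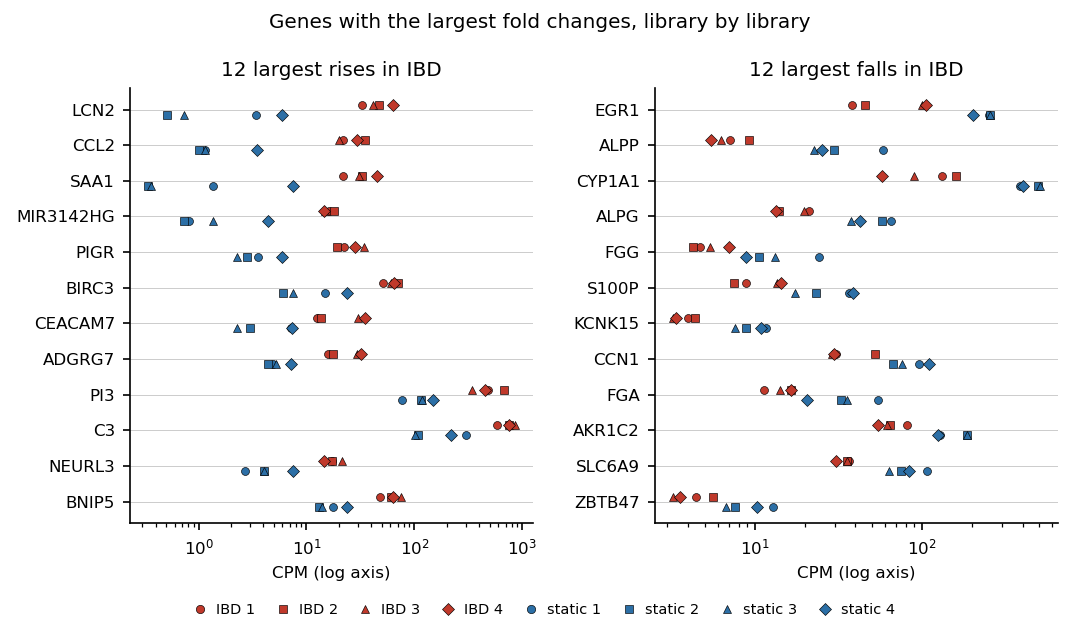
CPM on log axes of the 12 genes with the largest rises and the 12 with the largest falls in IBD. Each point is 1 of the 4 IBD libraries (red) or 4 static libraries (blue), and shapes give the replicate number. Genes were picked with group ranges that do not overlap, so no red point lies among the blue points of the same gene. Static 4 lies nearest to the IBD libraries in LCN2, CCL2, SAA1 and MIR3142HG.

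Chemokines were among the ligands that rose. CCL2, which attracts monocytes, was at 22.0, 35.2, 20.1 and 29.6 CPM in IBD 1 to 4 and at 1.16, 1.02, 1.15 and 3.52 CPM in static 1 to 4. It was 15.5-fold higher in IBD (edgeR adjusted p = 0.00133, log2 fold change 3.95 ± 0.38 SE) and stayed past the threshold with each library left out, with a log2 fold change of 4.58 without static 4. CXCL5 was at 11.8, 14.1, 12.1 and 16.6 CPM in IBD. In the static libraries 1 to 4 it was at 0, 0.0567, 0 and 2.21 CPM, so nearly all static counts came from static 4. It rose (log2 fold change 4.55 ± 0.88 SE, edgeR adjusted p = 0.0277) but was past the threshold with neither IBD 1, IBD 3, IBD 4 nor static 2 left out (adjusted p from 0.0666 to 0.108). Its fitted log2 fold change was 9.14 without static 4, a value that rests on near-absent static counts and is imprecise (edgeR adjusted p = 1.32e-05). CXCL16, a membrane-bound chemokine that overlaps another gene, rose 1.37-fold, from 49.0 ± 3.28 to 67.3 ± 1.31 CPM (SD, n = 4 each, edgeR adjusted p = 0.0186), and did not pass without IBD 1, IBD 3, IBD 4 or static 4 (edgeR adjusted p from 0.0526 to 0.0616).

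The other neutrophil and lymphocyte attractants did not pass in the 8 libraries, and static 4 was the highest static library in each of those described here. CCL20, which attracts cells bearing CCR6, was at 48.4, 60.9, 63.0 and 63.5 CPM in IBD and at 4.34, 3.17, 3.64 and 32.7 CPM in static 1 to 4. Static 4 lay far above the other static libraries and still below every IBD library. It had a log2 fold change 2.42 ± 0.64 SE (edgeR adjusted p = 0.0838), and 3.98 without static 4 (edgeR adjusted p = 3.63e-06). CXCL8, the main neutrophil chemokine, was at 21.3, 33.3, 14.7 and 19.999 CPM in IBD and 2.61, 0.907, 2.50 and 10.3 CPM in the static control (edgeR adjusted p = 0.0566, and 0.00201 without static 4). CXCL1, CXCL2 and CXCL3, named after their values were seen, showed the same order. CXCL1 was at 24.7, 34.2, 24.1 and 29.6 CPM in IBD and 2.07, 1.25, 1.82 and 20.7 CPM in the static control (edgeR adjusted p = 0.15, and 4.05e-06 without static 1 and 4). CXCL2 and CXCL3 had edgeR adjusted p of 0.0577 and 0.0571, and 0.000673 and 3.55e-06 without static 1 and 4. Leaving out the highest static library narrows the static spread of these chemokines, so their adjusted p without static 4 are optimistic. Of the 10 chemokines tested, of 14 listed, 3 rose (against 0.959% of all tested genes) and 0 fell, and their median log2 fold change was 2.25 against -0.01 over all tested genes. In 9 of the 10 every IBD library lay above every static library, against 5.26% of all tested genes. Without static 4, 7 members rose, and without static 1 and 4 also 7, when 0.723% of all tested genes were higher. Without IBD 1, 3 or 4 only 1 member rose, and without static 2 it was 2. CXCL6, CXCL10, CXCL11 and CCL5 were listed at 0 in all 8 libraries.

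Of 10 cytokines and TNF family ligands tested, of 15 listed, 3 rose (against 0.959% of all tested genes) and 0 fell, with a median log2 fold change of 0.97. LTB, a subunit of the lymphotoxin that drives lymphoid tissue, was at 5.59, 7.92, 6.92 and 7.40 CPM in IBD and 0.0482, 0.113, 0.104 and 0.955 CPM in the static control. It rose 22.1-fold (log2 fold change 4.47 ± 0.59 SE, edgeR adjusted p = 0.0046), with most static counts in static 4, and the fitted log2 fold change was 6.21 without that library, on very few static counts. IL32, a cytokine that overlaps other genes, was at 121, 144, 136 and 135 CPM in IBD and 68.8, 65.3, 63.3 and 77.4 CPM in the static control and rose 1.95-fold (edgeR adjusted p = 0.00133). IL1B was at 3.81, 3.28, 2.78 and 4.68 CPM in IBD and 1.30, 0.68, 0.416 and 1.61 CPM in the static control and rose 3.59-fold (edgeR adjusted p = 0.0323). LTB and IL32 passed with each library left out. IL1B passed with neither IBD 1, IBD 3, IBD 4 nor static 2 left out (edgeR adjusted p from 0.0628 to 0.122). IL1A, of the same family, was at 3.47, 4.07, 6.98 and 5.76 CPM in IBD and 3.67, 1.70, 1.67 and 3.17 CPM in the static control (edgeR adjusted p = 0.133, 0.0415 without static 1 and 4). Without static 1 and 4, 5 members rose, and 2 did without IBD 1, IBD 3, IBD 4 or static 2.

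Among 20 cytokine and pattern receptors tested, of 25 listed, 3 rose (against 0.959% of all tested genes) and 0 fell, and the median log2 fold change was 0.14. IFNGR1, the ligand-binding chain of the interferon gamma receptor, was at 396, 474, 526 and 566 CPM in IBD and 183, 179.8, 241 and 294 CPM in the static control. It rose 2.19-fold (log2 fold change 1.13 ± 0.17 SE, edgeR adjusted p = 0.00764) and passed with each library left out. TLR2, a receptor for bacterial lipoproteins, was at 30.5, 29.8, 52.4 and 45.3 CPM in IBD and 23.8, 18.4, 24.3 and 21.2 CPM in the static control (edgeR adjusted p = 0.0475). IL6ST, the shared signalling chain of the IL-6 family, which overlaps other genes, averaged 47.8 ± 5.23 CPM in IBD and 30.0 ± 5.12 CPM in the static control (SD, n = 4 each, edgeR adjusted p = 0.0277). TLR2 was lost without any of the libraries but IBD 2 and static 3 (adjusted p from 0.0516 to 0.158 in edgeR), and IL6ST without any but IBD 2, static 3 and static 4 (0.0543 to 0.103). The count was then 1 without IBD 1, IBD 3, IBD 4, static 1 or static 2. The TNF receptor TNFRSF1A was at 115, 130.1, 127 and 109.9 CPM in IBD and 131, 123, 112 and 118 CPM in the static control, with overlapping ranges (edgeR adjusted p = 0.97).

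Within the NF-kB pathway, inhibitors and regulators rose while the main subunits did not pass. Of 21 subunits, kinases and inhibitors tested, all that were listed, 8 rose (against 0.959% of all tested genes) and 0 fell, with a median log2 fold change of 0.39. NFKBIA was at 133, 156, 149 and 143 CPM in IBD and 54.6, 46.5, 45.7 and 82.8 CPM in the static control, 2.53-fold higher (edgeR adjusted p = 0.00426, log2 fold change 1.34 ± 0.17 SE). TNFAIP3, which overlaps another gene, was at 109.5, 150.2, 134 and 128 CPM in IBD and 35.9, 30.8, 30.7 and 54.998 CPM in the static control, 3.42-fold higher (edgeR adjusted p = 0.00146, log2 fold change 1.77 ± 0.18 SE). BIRC3 was at 51.3, 70.3, 61.1 and 65.1 CPM in IBD and 14.9, 6.12, 7.44 and 23.6 CPM in the static control, 4.75-fold higher (edgeR adjusted p = 0.00936, log2 fold change 2.25 ± 0.34 SE). All 3 carry the kB matches printed above. In NFKBIA, TNFAIP3 and BIRC3 static 4 was the highest of the static libraries and no static library reached the lowest IBD library.

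IKBKE, an IkB kinase family member that overlaps other genes, was at 45.3, 51.2, 42.4 and 39.9 CPM in IBD and 13.3, 10.8, 9.21 and 23.1 CPM in the static control, 3.17-fold higher (edgeR adjusted p = 0.00731). NFKBIE, the inhibitor IkB-epsilon, was at 45.2, 51.0, 46.6 and 44.4 CPM in IBD and 22.2, 20.4, 19.1 and 25.4 CPM in the static control, 2.15-fold higher (edgeR adjusted p = 0.00133). RELB, the subunit of the noncanonical arm, rose 2.09-fold (edgeR adjusted p = 0.0141). TNIP1, which binds A20, rose 1.90-fold, and BCL3, an atypical IkB protein, 1.53-fold (edgeR adjusted p = 0.00816 and 0.0208, both named after their values were seen). BCL3 overlaps another gene and did not pass without IBD 1, IBD 3, static 2 or static 4 (edgeR adjusted p from 0.0527 to 0.0693). The DNA-binding subunits that carry the canonical signal did not pass. NFKB1 was at 106, 122, 92.5 and 85.2 CPM in IBD and 81.9, 89.7, 82.3 and 85.9 CPM in the static control (edgeR adjusted p = 0.232), and RELA at 79.1, 76.5, 77.5 and 66.6 and 95.7, 88.3, 79.5 and 88.4 CPM (edgeR adjusted p = 0.19). NFKB2 was at 109, 119, 111 and 91.6 CPM in IBD and 93.0, 53.5, 46.5 and 98.4 CPM in the static control, where replicates 1 and 4 were in the IBD range. Its edgeR adjusted p was 0.197 in the 8 libraries and 0.0014 without static 1 and 4. With each library left out in turn 7 or 8 members rose, and 9 rose without static 1 and 4.

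**Figure D2:**
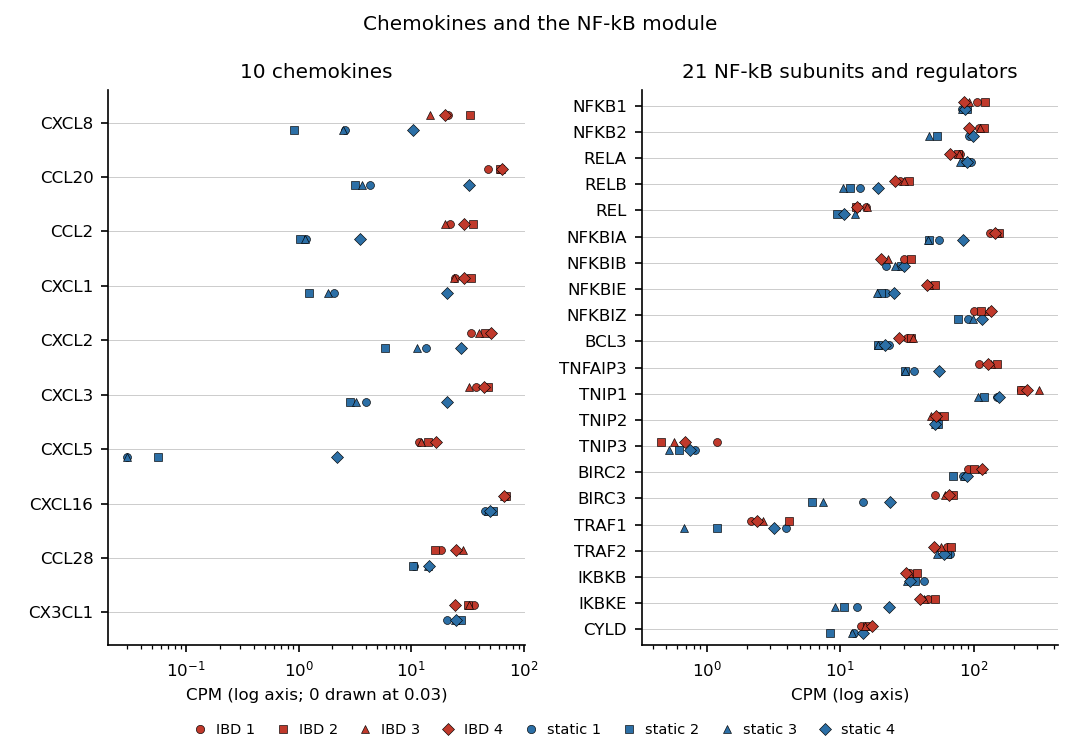
CPM on log axes of the 10 tested chemokines and the 21 tested NF-kB subunits and regulators, with 4 IBD libraries in red and 4 static libraries in blue. Static 4 (blue diamond) stands apart from the other static libraries in CCL20, CXCL1, CXCL3 and CXCL5. For NFKBIE, TNFAIP3 and BIRC3 all 4 red points lie above all 4 blue points.

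Mucosal defence genes, many of them secreted products that NF-kB is known to induce, rose in 8 of 20 tested members, of 30 listed, against 0.959% of all tested genes, and fell in 0, with a median log2 fold change of 0.84. LCN2 was at 33.0, 46.6, 41.3 and 62.9 CPM in IBD and 3.38, 0.51, 0.729 and 5.88 CPM in the static control. Static 2 and 3 were below 1 CPM, and static 1 and 4 were between them and the IBD libraries. The rise was 17.2-fold (log2 fold change 4.10 ± 0.54 SE, edgeR adjusted p = 0.0046), with a log2 value of 4.85 without static 4 and 6.18 without static 1 and 4. PIGR, which carries polymeric immunoglobulin across the epithelium, was at 22.3, 19.0, 34.2 and 28.1 CPM in IBD and 3.57, 2.83, 2.29 and 5.88 CPM in the static control, 7.07-fold higher (edgeR adjusted p = 0.00146, log2 fold change 2.82 ± 0.29 SE). The acute-phase protein SAA1 was at 22.0, 32.5, 30.5 and 45.4 CPM in IBD and 1.35, 0.34, 0.364 and 7.44 CPM in the static control (log2 fold change 3.76 ± 0.71 SE, edgeR adjusted p = 0.0262). Its counts are uncertain, because it overlaps another gene and has a near-identical paralog. SAA1 rose by 5.52 on the log2 scale without static 4 and did not pass without IBD 1, IBD 3, IBD 4 or static 2 (edgeR adjusted p from 0.0568 to 0.108).

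Complement C3, which overlaps other genes, was at 586, 749.7, 858 and 758 CPM in IBD and 299.9, 108, 101 and 219 CPM in the static control, 4.05-fold higher (edgeR adjusted p = 0.00973). LYZ, the antibacterial lysozyme, overlaps another gene and was at 23.4, 27.2, 23.1 and 25.9 CPM in IBD and 8.39, 9.35, 8.85 and 10.8 CPM in the static control, 2.67-fold higher (edgeR adjusted p = 0.00133, named after its values were seen). MMP7, a matrix protease, was at 3.62, 3.62, 3.86 and 5.44 CPM in IBD and below 1 CPM in each static library, 9.09-fold higher (edgeR adjusted p = 0.00214). ICAM1, a leukocyte adhesion molecule that overlaps other genes, rose 1.96-fold (edgeR adjusted p = 0.0135, named after its values were seen). CEACAM7, an adhesion molecule of mature colon epithelium, was at 12.5, 13.7, 30.0 and 34.7 CPM in IBD and 7.19, 3.00, 2.29 and 7.34 CPM in the static control (log2 fold change 2.19 ± 0.43 SE, edgeR adjusted p = 0.0325). It was higher in IBD 3 and 4 than in IBD 1 and 2, and it did not pass without IBD 3, IBD 4, static 2 or static 4 (edgeR adjusted p from 0.0529 to 0.122). DUOX2, an oxidase of the mucosal surface that overlaps another gene, was at 0.723, 0.622, 4.82 and 3.23 CPM in IBD and 0.434, 0.227, 0.104 and 0 CPM in the static control (edgeR adjusted p = 0.0626, 0.0252 without IBD 2), named after its values were seen. Its log2 fold change was 3.55, or 2.90 without IBD 3 and 4.35 without static 1. The list had 6 to 10 members higher with each library left out and 9 without static 1 and 4.

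Other genes of the 12 largest rises belong to no list or to another one. MIR3142HG was at 16.3, 17.9, 15.0 and 14.7 CPM in IBD and 0.82, 0.737, 1.35 and 4.42 CPM in the static control (log2 fold change 3.11 ± 0.46 SE, edgeR adjusted p = 0.00827), or 4.03 on the log2 scale without static 4. This noncoding transcript on chromosome 5 spans the gene of miR-146a, a miRNA that NF-kB is known to induce and that targets adaptors of the Toll-like receptors. The mature miR-146a-5p is shown with its seed, bases 2 to 8, in capitals, because the host transcript and not the miRNA was counted (RefSeq, GRCh38.p14, chr5:160485372-160485393, plus strand).
hsa-miR-146a-5p: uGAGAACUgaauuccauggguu

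PI3, the epithelial elastase inhibitor elafin, was at 477, 684, 341 and 449.6 CPM in IBD and 76.1, 115, 117 and 148 CPM in the static control, 4.28-fold higher (edgeR adjusted p = 0.00199, log2 fold change 2.10 ± 0.23 SE). ADGRG7, an adhesion receptor that overlaps other genes, rose 4.33-fold, NEURL3, a ubiquitin ligase, 3.88-fold, and BNIP5 3.61-fold (edgeR adjusted p = 0.00285, 0.00529 and 0.00163). All of these passed with each library left out. Of 29 tested genes of the actin, SRF target and integrin list, of 33 listed, 2 rose (against 0.959% of all tested genes) and 0 fell. The collagen receptor subunit ITGA2 rose 1.49-fold (edgeR adjusted p = 0.0429). ITGA2 overlaps other genes and passed only with IBD 1 or static 3 left out among single libraries (edgeR adjusted p from 0.0561 to 0.127 otherwise). The median of that list was -0.16, and ACTB was at 3106, 3181, 3217 and 3248 CPM in IBD and 3605, 3814, 3659 and 3357 CPM in the static control (edgeR adjusted p = 0.234). TAGLN, an actin-binding protein, was at 20.2, 33.1, 17.4 and 16.7 CPM in IBD and 31.0, 69.5, 73.2 and 36.1 CPM in the static control (log2 fold change -1.26 ± 0.30 SE, edgeR adjusted p = 0.0654). It passed without IBD 2 or static 1 (edgeR adjusted p = 0.021 and 0.0336), and without static 1 and 4 its log2 fold change was -1.71 (edgeR adjusted p = 0.00246).

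Antigen presentation and interferon genes had 1 call in each direction. Of 25 tested members, of 36 listed, GBP2 was higher (against 0.959% of all tested genes), MX1 lower (against 0.66%) and 23 did not pass, with a median log2 fold change of 0.00. GBP2, an interferon-induced GTPase that overlaps another gene, rose 1.64-fold (edgeR adjusted p = 0.0439). MX1 was at 0.289, 0.17, 0.34 and 0.253 CPM in IBD and 1.11, 0.624, 0.729 and 0.905 CPM in the static control (edgeR adjusted p = 0.0467), and it overlaps another gene. GBP2 missed the threshold in 6 and MX1 in 7 of the 8 fits with 1 library left out, with edgeR adjusted p from 0.0714 to 0.156 for GBP2 and 0.0658 to 0.144 for MX1. HLA-B, which overlaps other genes and has close paralogs, was at 2.22, 2.94, 3.12 and 4.94 CPM in IBD and 19.0, 4.54, 1.41 and 10.3 CPM in the static control, where replicates 1 and 4 were highest (edgeR adjusted p = 0.232). Without static 3 it passed (edgeR adjusted p = 0.0398), and 5 members of the list were lower. Without static 1 its log2 fold change was -0.72, against -1.42 in the 8 libraries. Against static 1 and 4 alone 2 members were higher and 7 lower (1.45% and 6.87% of 15192 genes), and against static 2 and 3 alone 1 was higher and 0 lower (against 0.723% and 0.433% of 14792 genes). The list's median level was higher in static 1 and 4 than in static 2 and 3, so the 7 falls follow in part from that choice of libraries.

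EGR1 (ENSG00000120738.7 in GENCODE v29, GRCh38, chromosome 5, plus strand, bases 138465490 to 138469315) overlaps no other gene. It was at 38.4, 45.6, 99.9 and 106 CPM in IBD 1 to 4 and at 252, 256, 255 and 202 CPM in static 1 to 4. All 4 IBD libraries lay below all 4 static libraries, and IBD 1 and 2 lay below IBD 3 and 4. EGR1 was 3.33-fold lower in IBD (log2 fold change -1.74 ± 0.29 SE, edgeR adjusted p = 0.0157). It passed with each library left out, with log2 fold changes from -1.99 to -1.52. The fold change was -1.83 without static 1 and 4 (edgeR adjusted p = 0.0198) and -2.53 without IBD 3 and 4 (edgeR adjusted p = 0.000847).

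No other tested gene of the immediate early list passed in the 8 libraries. Of 25 tested, of 30 listed, EGR1 fell (against 0.66% of all tested genes) and 0 rose, with a median log2 fold change of -0.18. FOS, which with JUN forms AP-1 and shares serum response factor control with EGR1, was named after its values were seen. It was at 12.1, 10.7, 47.2 and 41.7 CPM in IBD and 36.8, 34.1, 33.7 and 29.9 CPM in the static control, with IBD 1 and 2 below and IBD 3 and 4 above every static library (edgeR adjusted p = 0.769). EGR4 was at 0.578, 0.566, 0.567 and 0.38 CPM in IBD and 1.11, 0.964, 1.09 and 0.654 CPM in the static control (edgeR adjusted p = 0.169), and EGR2 was at 0.289, 0.792, 1.08 and 1.20 and 0.82, 1.59, 0.781 and 0.553 CPM (edgeR adjusted p = 0.879). Without static 3, 3 members were lower, and without IBD 2 it was 2. None of 14 tested feedback genes of the ERK pathway, of 16 listed, which transmits growth factor signals to EGR1, passed in the 8 libraries, and their median was 0.05. The phosphatase DUSP2 was at 12.5, 18.6, 8.11 and 10.3 CPM in IBD and 20.5, 20.2, 19.5 and 19.3 CPM in the static control (edgeR adjusted p = 0.121, 0.0117 without IBD 2). DUSP4 was at 7.23, 13.2, 4.99 and 7.21 CPM in IBD and 44.1, 15.4, 9.89 and 39.3 CPM in the static control, highest in static 1 and 4. Its adjusted p was 0.0819 in edgeR, and 0.042 and 0.0181 without IBD 2 and without static 3.

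YAP and TAZ are cofactors that enter the nucleus when cells are stretched or spread. Of 23 tested targets, of 25 listed, 2 fell (against 0.66% of all tested genes) and 0 rose, and the median log2 fold change was -0.39. CCN1, a matricellular protein, was at 30.4, 52.1, 28.9 and 29.7 CPM in IBD and 95.6, 67.4, 75.6 and 109.8 CPM in the static control, 2.47-fold lower (log2 fold change -1.30 ± 0.21 SE, edgeR adjusted p = 0.0133, 0.0603 without IBD 4). FJX1 was at 9.93, 11.6, 8.68 and 6.58 CPM in IBD and 15.8, 16.6, 14.8 and 18.1 CPM in the static control (edgeR adjusted p = 0.0384), and lost its call in 6 of the 8 fits with 1 library left out (adjusted p from 0.0544 to 0.124 in edgeR). ANKRD1 was at 45.5, 73.3, 35.8 and 40.1 CPM in IBD and 51.4, 70.8, 109 and 91.5 CPM in the static control (edgeR adjusted p = 0.16, 0.0355 without IBD 2). The count was 0 without IBD 4 and 4 without IBD 2, and 1 without IBD 1, IBD 3, static 2 or static 4. Against static 1 and 4 alone 8 members were lower, when 6.87% of all tested genes were, and against static 2 and 3 alone 1 was, when 0.433% were. The list's median level was higher in static 1 and 4 than in static 2 and 3, so the first count follows in part from that choice of libraries.

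The other large falls included placental-type phosphatases, clotting proteins and metabolic genes. ALPP was at 7.13, 9.28, 6.24 and 5.44 CPM in IBD and 58.1, 29.9, 22.4 and 25.2 CPM in the static control, 4.82-fold lower (log2 fold change -2.27 ± 0.30 SE, edgeR adjusted p = 0.0046). ALPG, its close paralog, was at 21.2, 13.9, 19.6 and 13.4 CPM in IBD and 65.4, 57.5, 37.8 and 42.6 CPM in the static control, 2.98-fold lower (edgeR adjusted p = 0.00426). Reads can be shared between the pair, and ALPP overlaps another gene, so each value is uncertain. The fibrinogen chains FGG and FGA fell 2.69-fold and 2.46-fold (edgeR adjusted p = 0.0441 and 0.0278). FGA was at 11.4, 16.4, 14.1 and 16.5 CPM in IBD and 54.9, 32.8, 35.5 and 20.4 CPM in the static control. S100P, a calcium-binding protein, was at 8.87, 7.52, 13.6 and 14.2 CPM in IBD and 36.7, 23.2, 17.3 and 38.7 CPM in the static control (edgeR adjusted p = 0.033). SLC6A9, a glycine transporter that overlaps other genes, was at 36.4, 35.5, 35.6 and 30.5 CPM in IBD and 106, 75.0, 63.4 and 84.0 CPM in the static control, 2.38-fold lower (edgeR adjusted p = 0.00236). The potassium channel gene KCNK15 fell 2.61-fold (edgeR adjusted p = 0.00493) and the zinc finger gene ZBTB47 2.22-fold (edgeR adjusted p = 0.0443), and both overlap other genes. ALPP, ALPG, SLC6A9 and KCNK15 passed with each library left out. FGG and FGA did not pass without IBD 1, IBD 3, IBD 4 or static 2, nor FGG without IBD 2 (edgeR adjusted p from 0.056 to 0.118 and from 0.0664 to 0.0926). S100P and ZBTB47 did not pass without any single library other than IBD 2 and static 3 (edgeR adjusted p from 0.0551 to 0.0979 and from 0.0664 to 0.151).

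CYP1A1, the cytochrome P450 that the aryl hydrocarbon receptor induces, was at 132, 159, 90.0 and 57.8 CPM in IBD and 386, 494, 509 and 403 CPM in the static control. It was 4.07-fold lower (log2 fold change -2.03 ± 0.26 SE, edgeR adjusted p = 0.00426), passed with each library left out, and was lowest in IBD 4. It was the only one of 8 tested receptor targets and partners, of 11 listed, to pass (0.66% of all tested genes were lower), and the median log2 fold change was -0.75, with 8 of 8 below 0. TIPARP and ALDH3A1, named after their values were seen, had edgeR adjusted p of 0.0581 and 0.0518. Without static 3 the count was 4 and without IBD 2 it was 3. The receptor AHR itself overlaps other genes and was at 0.771, 0.396, 0.624 and 0.57 CPM in IBD and 0.82, 0.794, 1.09 and 1.16 CPM in the static control (edgeR adjusted p = 0.249).

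NRF2 switches on genes of glutathione synthesis and detoxification under oxidative stress. Of 21 tested targets, of 23 listed, 6 fell (against 0.66% of all tested genes) and 0 rose, with a median log2 fold change of -0.38. The aldo-keto reductase AKR1C2 was at 81.2, 64.1, 61.8 and 54.6 CPM in IBD and 128, 187, 186 and 125 CPM in the static control, 2.39-fold lower (log2 fold change -1.25 ± 0.16 SE, edgeR adjusted p = 0.0046). AKR1C1 and AKR1C3 fell 2.20-fold and 1.84-fold (edgeR adjusted p = 0.0153 and 0.00506). These reductases are close paralogs and reads can be shared among them, so the 3 calls may not be independent and each count is uncertain. SLC7A11, the cystine transporter, was at 14.3, 16.9, 17.8 and 17.7 CPM in IBD and 32.2, 26.0, 24.2 and 34.1 CPM in the static control, 1.75-fold lower (edgeR adjusted p = 0.0153, 0.0529 without IBD 1). TXNRD1, thioredoxin reductase, was 1.47-fold lower (edgeR adjusted p = 0.0423). FTH1, the ferritin heavy chain, was at 1049.9, 1043, 1012 and 857 CPM in IBD and 2397, 1528, 1204 and 2452 CPM in the static control (edgeR adjusted p = 0.0467). FTH1 was highest in static 1 and 4. FTH1 lost its call in 6 of 8 fits with 1 library left out and TXNRD1 in 5 (edgeR adjusted p from 0.0644 to 0.158 and from 0.0658 to 0.131), and AKR1C1 without IBD 4 or static 2 (0.055 and 0.0528). The count was 3 without IBD 1 or IBD 4, 4 without IBD 3, static 1 or static 4, and 4 without static 1 and 4 together. SLC7A11 and TXNRD1 overlap other genes, as does FTH1. None of 7 tested metallothionein and zinc genes, of 11 listed, passed in the 8 libraries.

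The integrated stress response slows translation and raises amino acid supply when cells are stressed. Of 30 tested genes of the integrated stress and unfolded protein response, of 32 listed, 6 fell (against 0.66% of all tested genes) and 0 rose, with a median log2 fold change of -0.10. PHGDH, the first enzyme of serine synthesis, was at 334, 306, 401 and 403 CPM in IBD and 643, 587, 545 and 666 CPM in the static control, 1.69-fold lower (log2 fold change -0.76 ± 0.11 SE, edgeR adjusted p = 0.00731). PSAT1, the next enzyme, was at 119.6, 116, 131 and 152 CPM in IBD and 239.9, 166, 193 and 287 CPM in the static control (edgeR adjusted p = 0.0383). SHMT2, which makes glycine from serine in mitochondria and overlaps other genes, was 1.39-fold lower (edgeR adjusted p = 0.0192). SLC3A2, the partner chain of SLC7A11, was at 369.8, 449, 337 and 363 CPM in IBD and 603, 620.3, 563 and 607 CPM in the static control, 1.57-fold lower (edgeR adjusted p = 0.00764). PPP1R15A, the phosphatase subunit that ends translational arrest, and CHAC1, which degrades glutathione, fell 1.47-fold and 1.46-fold (edgeR adjusted p = 0.0256 and 0.0248). ATF4, the factor that drives the response, was at 465, 444, 540.5 and 549 CPM in IBD and 533, 625, 610.4 and 660.0 CPM in the static control (edgeR adjusted p = 0.164). PHGDH and SLC3A2 passed with each library left out. The count was 2 without IBD 1, static 4, or static 1 and 4 together, and 3 without IBD 4. PSAT1 (edgeR adjusted p from 0.0573 to 0.101), SHMT2 (0.052 to 0.0665), PPP1R15A (0.0794 to 0.084) and CHAC1 (0.0613 to 0.0844) each missed the threshold without IBD 1 or static 4 and in up to 3 other such fits.

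The IBD libraries differed among themselves in genes of the hypoxia response and glycolysis, which cells switch on when oxygen is short. Of 36 tested, of 39 listed, 1 rose (against 0.959% of all tested genes) and 0 fell, although the median log2 fold change was 0.76. ERO1A, an oxidase of disulfide formation that hypoxia is known to induce and that overlaps another gene, was at 304, 272, 601 and 502 CPM in IBD and 186, 174, 202 and 192 CPM in the static control. It rose 2.22-fold (edgeR adjusted p = 0.0262) and did not pass without IBD 3, IBD 4, static 2 or static 4 (edgeR adjusted p from 0.0589 to 0.106). NDRG1, a classical hypoxia target, was at 526, 124, 1978 and 1133 CPM in IBD and 305, 145, 131 and 137 CPM in the static control, so that IBD 2 lay below every static library and IBD 1, 3 and 4 lay above them. Its adjusted p was 0.0878 in edgeR and 0.00875 without IBD 2, and its log2 fold change was 2.39, or 1.72 without IBD 3. Relative to the mean of the 8 libraries, the list's median stood at 0.06, -0.30, 1.03 and 0.57 in IBD 1 to 4 and between -0.50 and -0.13 in the static libraries. Without IBD 2, 18 members were higher, as were 2.29% of all tested genes. Without IBD 3 and 4 the list's median was 0.21 and 1 member was higher, when 29 genes in all passed upwards (0.191% of 15166) and 8 downwards (0.0527%).

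Enterocyte and goblet lists also had their lowest level of the IBD group in IBD 2. The brush border list stood at 0.02, -0.36, 0.36 and 0.20 in IBD 1 to 4, and 0 of its 31 tested members, of 35 listed, passed in the 8 libraries, with a median of 0.15. Without IBD 2, 6 were higher (against 2.29% of all tested genes). DPP4, a brush border peptidase named after its values were seen, was at 294, 308, 322 and 283 CPM in IBD and 351, 507, 533 and 391 CPM in the static control (edgeR adjusted p = 0.057, 0.00139 without static 1 and 4). Goblet cell products stood at 0.15, -0.43, 0.43 and 0.48 in IBD 1 to 4. None of 12 tested, of 22 listed, passed in the 8 libraries, 5 were higher without IBD 2, and the median was 0.41. TFF1, a trefoil peptide named after its values were seen, was at 34.3, 21.1, 61.8 and 59.1 CPM in IBD and 14.5, 18.0, 19.9 and 19.0 CPM in the static control (edgeR adjusted p = 0.05003). MUC3A, a membrane mucin that overlaps another gene, was at 25.4, 8.54, 68.4 and 33.1 CPM in IBD and 17.031, 14.2, 11.6 and 12.5 CPM in the static control (edgeR adjusted p = 0.165, 0.0183 without IBD 2), and its log2 fold change was 1.29, or 0.68 without IBD 3. In lipid absorption FABP1, the cytosolic fatty acid carrier, was at 699, 616, 984 and 1052 CPM in IBD and 336, 453, 441 and 414 CPM in the static control, 2.04-fold higher (edgeR adjusted p = 0.0152, or 0.055 without IBD 4). It was the only one of 14 tested members, of 16 listed, that passed, against 0.959% of all tested genes higher, and the list's median was 0.32. APOA4, an apolipoprotein of chylomicrons that overlaps another gene, was at 91.6, 14.7, 202 and 138 CPM in IBD and 26.8, 11.7, 12.4 and 31.1 CPM in the static control (edgeR adjusted p = 0.0728, 0.00436 without IBD 2). None of 21 tested fatty acid oxidation and PPAR genes, of 24 listed, passed in the 8 libraries.

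**Figure D3:**
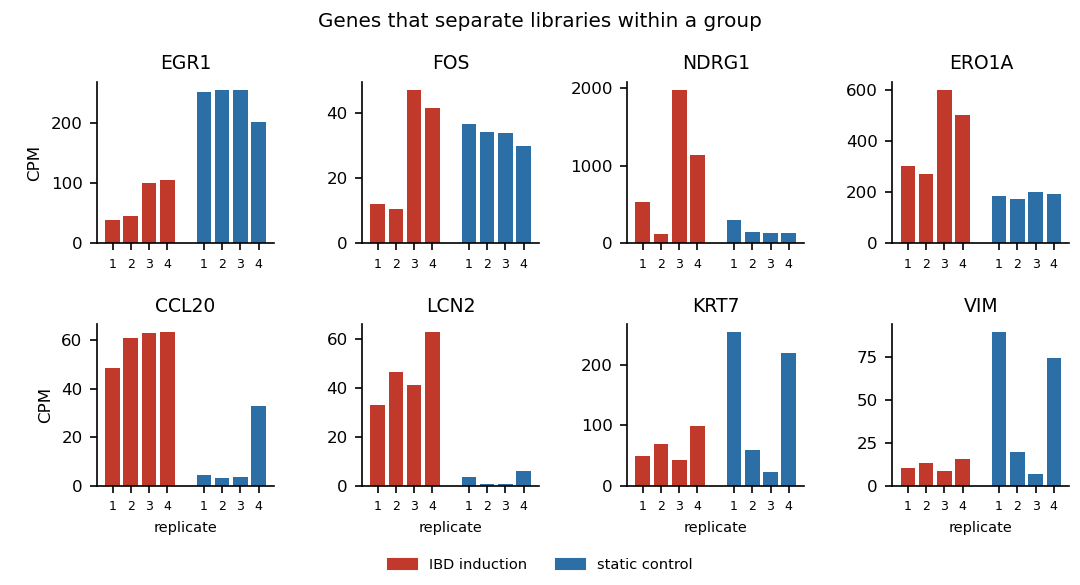
CPM per library of 8 genes, with 4 IBD libraries (red) and 4 static libraries (blue) numbered by replicate, each on a linear axis from 0. EGR1 is lower in all 4 IBD libraries, while FOS, NDRG1 and ERO1A are highest in IBD 3 and 4. In the static group CCL20 is raised in replicate 4, and KRT7 and VIM in replicates 1 and 4.

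Cholesterol biosynthesis genes rose in 3 of 25 tested members, of 26 listed, against 0.959% of all tested genes, and fell in 0, with a median log2 fold change of 0.34 and 23 of 25 above 0. SQLE, squalene epoxidase, was at 226, 243, 272 and 287 CPM in IBD and 188, 165, 176 and 186 CPM in the static control, 1.44-fold higher (edgeR adjusted p = 0.0192, log2 fold change 0.52 ± 0.09 SE). SC5D and ACAT2 rose 1.48-fold and 1.33-fold (edgeR adjusted p = 0.0467 and 0.0443), and ACAT2 overlaps other genes. In 11 members all IBD libraries lay above all static libraries, against 5.26% of all tested genes. The calls rested on single libraries, with 0 left without IBD 3, IBD 4, static 2 or static 4, 1 without static 1, 2 without IBD 1 or static 3, and 5 without IBD 2. The adjusted p of the 3 genes then ran from 0.0505 to 0.157 in edgeR.

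Among genes of epithelial identity and structure and mRNAs of mitochondrial DNA, ELF3 and MT-ND4L passed, when 1.62% of all tested genes did. Of 22 tested identity factors, of 26 listed, ELF3 rose, 0 fell and the median log2 fold change was 0.01. ELF3, an epithelial ETS factor that overlaps other genes and that inflammation is known to induce, was at 82.1, 79.6, 129 and 114 CPM in IBD and 67.6, 47.1, 53.4 and 62.9 CPM in the static control (edgeR adjusted p = 0.042, 0.0526 to 0.146 without IBD 1, IBD 3, IBD 4, static 2 or static 4). None of 30 tested junction genes, 29 cell cycle genes and 8 keratins (of 34, 31 and 14 listed) passed in the 8 libraries, with medians of 0.10, -0.05 and -0.23. Of 13 mRNAs encoded by mitochondrial DNA 1 rose, MT-ND4L (1.47-fold, edgeR adjusted p = 0.0485). It overlaps MT-ND4 and missed the threshold with any single library left out (edgeR adjusted p from 0.0512 to 0.169). Static 4 was the lowest of the 8 libraries in this list, at -0.37.

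Static replicates 1 and 4 stood apart in a set of genes that includes some known from mesenchymal and ductal cells. Among the 8025 genes whose mean log2 CPM reached 4, 68 were at least 2-fold higher in the mean of static 1 and 4 than in that of 2 and 3, and 3 at least 2-fold lower. KRT7, a keratin of ductal epithelia that overlaps other genes, was at 254, 58.8, 22.5 and 219 CPM in static 1 to 4 and 49.0, 68.1, 41.8 and 98.7 CPM in IBD 1 to 4. VIM, the mesenchymal intermediate filament, was at 89.4, 19.3, 6.87 and 74.2 CPM in the static libraries and 10.1, 13.4, 8.23 and 15.4 CPM in IBD, and CD44, the hyaluronan receptor, at 55.1, 9.98, 5.73 and 40.0 and 9.98, 17.8, 9.53 and 19.8 CPM. VIM and CD44 overlap other genes. In KRT7, VIM and CD44 every IBD library lay below static 1 and 4. OSMR, the oncostatin M receptor, was at 88.3, 9.13, 4.42 and 40.2 CPM in the static libraries. The collagens COL7A1 and COL5A1, the membrane protein BASP1 and the cytoskeletal linker MSN had the same order, with COL7A1 at 172, 20.7, 9.73 and 94.1 CPM. Like OSMR, they were picked for a large ratio of static 1 and 4 to static 2 and 3. The other tested collagens of the fibroblast list did not have this order. The median level of that list was 0.05, 0.15, -0.10 and 0.28 in static 1 to 4, on the log2 scale relative to the 8-library mean. None of 21 tested genes of the mesenchymal and KRT7 list, of 25 listed, passed in the 8 libraries (KRT7 and VIM edgeR adjusted p = 0.349 and 0.121), and its median was -0.47. Against static 1 and 4 alone 10 were lower in IBD, when 6.87% of all tested genes were, and against static 2 and 3 alone 1 was higher, when 0.723% were. The list was chosen with earlier results of these data known, and it stood highest in static 1 and 4. The count against that pair follows from this choice and is no separate support. VIM passed without static 3 (edgeR adjusted p = 0.0161), and 4 members were then lower (against 2.86% of all tested genes). The log2 fold change of COL5A1 went from -1.04 to 0.09 without static 1, that of OSMR from -1.32 to -0.32, of COL7A1 from -1.35 to -0.50, of BASP1 from -1.46 to -0.67 and of MSN from -1.14 to -0.38.

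**Figure D4:**
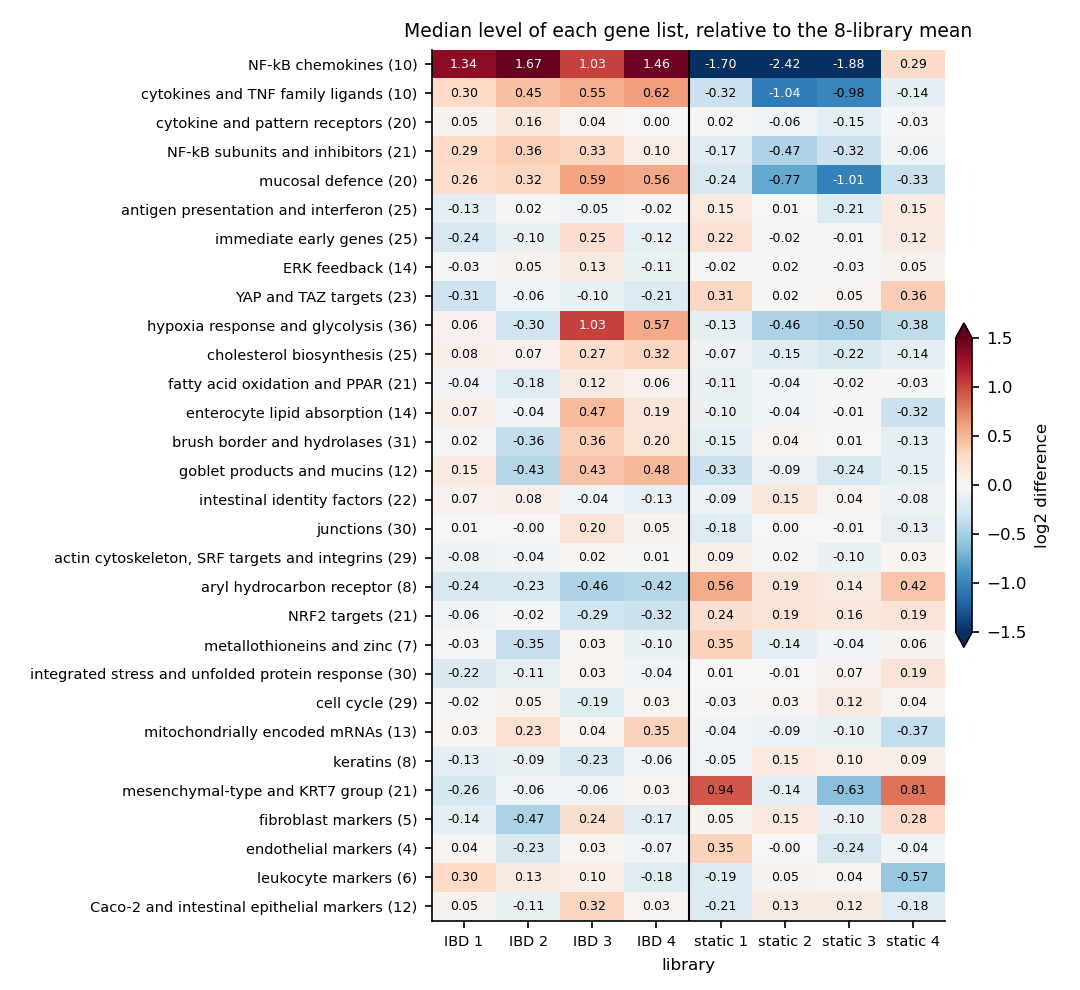
Median log2 level of the tested members of each of 30 gene lists in the 4 IBD and 4 static libraries, relative to each gene's mean over the 8 libraries, with the number of tested members in brackets. Chemokines stand between 1.03 and 1.67 in IBD and at -1.70, -2.42, -1.88 and 0.29 in static 1 to 4. The mesenchymal and KRT7 list stands at 0.94 and 0.81 in static 1 and 4, and hypoxia genes at 1.03 and 0.57 in IBD 3 and 4.

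Markers of other cell types were scarce. Of 12 fibroblast markers 5 were tested, with sums over all 12 of 39.5 to 72.3 CPM in IBD and 44.8 to 138 CPM in the static control. The highest sum was in static 1, where COL5A1 was at 89.0 CPM. The sums in this paragraph are CPM without TMM factors, while the COL5A1 level includes them. Of 12 endothelial markers 4 were tested, with sums over all 12 of 34.4 to 49.4 in IBD and 35.2 to 53.3 in the static control. Of 15 leukocyte markers 6 were tested, with sums over all 15 of 19.0 to 23.6 in IBD and 12.6 to 19.1 in the static control. No member of these 3 lists passed in the 8 libraries. THY1 and POSTN of the fibroblast list, KDR of the endothelial list and CD2 and TYROBP of the leukocyte list were listed at 0 in all 8 libraries. The part of these levels in the results was not tested.

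The list genes that passed in the 8 libraries kept their direction when the static pair was removed. Of 52 list genes past the threshold, 35 higher and 17 lower, 52 had the same sign of fold change without static 1 and 4. Group ranges did not overlap in 232 of the 233 genes past the threshold, so this sign was all but fixed in advance. The log2 fold changes of LCN2 and SAA1 were 6.18 and 6.50 without that pair, while that of VIM moved from -2.01 to -0.16 and that of COL5A1 from -1.04 to 1.19. The log2 fold change of BIRC3 was then 3.18, of C3 2.81, of CEACAM7 3.09, of IL1B 2.72, of MMP7 4.03, of CCL2 4.61, of MIR3142HG 3.91 and of DUSP4 -0.64. CCL20, CXCL8, CXCL1, CXCL2, CXCL3, IL1A, NFKB2, TAGLN and DPP4 did not pass in the 8 libraries and passed without the pair, with edgeR adjusted p from 1.27e-06 in CCL20 to 0.0415 in IL1A. The pair was set apart on these same data, and leaving it out narrows the static spread of these genes. These adjusted p are therefore optimistic and no separate support. Among the genes named above, S100P, ZBTB47, CXCL16, TLR2, ITGA2, GBP2, MX1, FJX1, SLC7A11, TXNRD1, FTH1, PSAT1, SHMT2, PPP1R15A, CHAC1, ERO1A, FABP1, SC5D, ACAT2 and MT-ND4L were past the threshold in the 8 libraries and not without that pair, with edgeR adjusted p from 0.0596 to 0.285. That fit has 6 libraries, and several of these had about the same log2 fold change in both, at 1.15 and 1.15 in ERO1A, 0.58 and 0.59 in ITGA2, 0.85 and 0.88 in TLR2, and -0.55 and -0.55 in CHAC1. Others shrank, from -0.94 to -0.47 in FTH1, -1.39 to -0.88 in S100P, -0.77 to -0.47 in PSAT1 and -1.15 to -0.78 in ZBTB47.

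**Figure D5:**
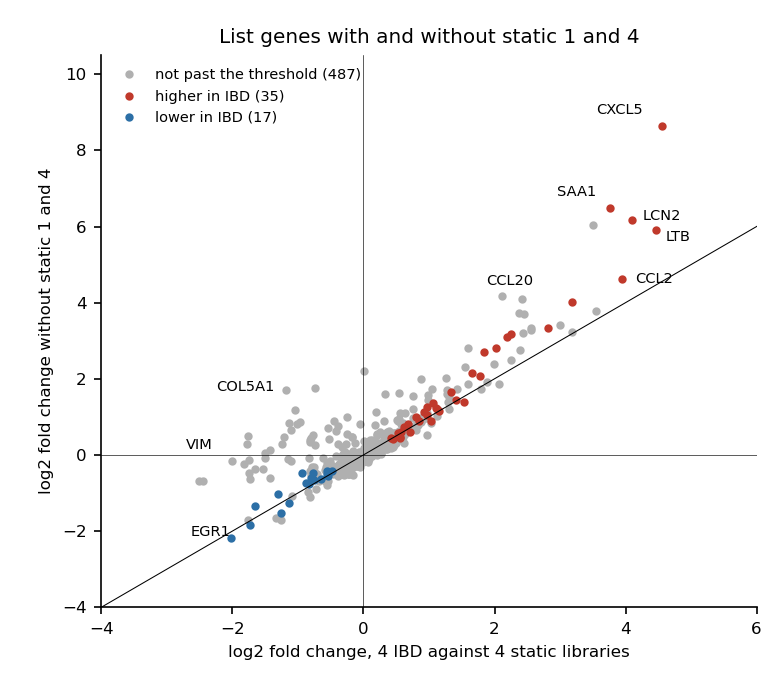
Log2 fold change of 539 tested list genes without static 1 and 4 (vertical axis) against that over all 8 libraries (horizontal axis), with the line of equality. Red genes (35) were higher and blue genes (17) lower in the 8 libraries, and grey genes (487) did not pass. LCN2, SAA1 and CXCL5 lie above the line, and EGR1 lies close to it.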

How the data were processed

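RNA from Caco-2 cells was purified with polyT, fragmented and amplified by PCR into libraries for Illumina sequencing, per the labels' protocols, and no strand-marking step is described. The submitters' processing notes name the aligner STAR 2.7.11a, the counter featureCounts 2.0.6, fastp 0.23.4, FastQC 0.12.1, DESeq2 1.42.0 and the hg38 build. No source used here gives their settings, strand included. The authors deposited raw counts and FPKM per gene in tables of 4 libraries. The FPKM values imply that counting and length covered whole gene spans, so intronic reads count and genes within other genes can lose or gain reads.

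The counts of the IBD and static tables (61228 genes) were joined on gene symbol. After edgeR's filter by expression 14396 genes were fitted in edgeR 4.0.16 (R 4.3.3) with TMM factors, a 2-group design over the 8 libraries and the quasi-likelihood test, with Benjamini-Hochberg adjustment over all of them and a threshold of 0.05. SE is the absolute log2 fold change divided by the square root of F. The range of total counts in each group is given in the report, and each group has n = 4. The deposited FPKM values were tested with limma 3.58.1 as an alternative, as was DESeq2 1.42.0 on the counts. On simulated counts 79% of 100 genes changed 2-fold and 100% of 100 changed 4-fold were recovered, with 8 other genes called of 14197. The simulated counts varied independently around a common profile, and only well-counted genes were changed. They lacked the differences shared by many genes among the static and the IBD libraries, so these figures do not give the performance on the real counts. Tables and figures were made with Python 3.11.15, pandas 2.3.3, numpy 2.4.6 and matplotlib 3.10.9. Of 32 value columns 16, from tables whose codes no label ties to a sample group, were not used.

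The genes and lists were chosen with earlier results of these data known. The rule named EGR1, the 12 largest rises and falls past the threshold whose mean log2 CPM reached 2 and whose group ranges were separate, the first 3 tested genes and up to 6 past the threshold of each list, and genes with the largest spread among static libraries. It left pseudogenes and clone, antisense and LINC names out. It gave 142 genes, of which 91 are described together with 13 chosen after their values were seen. Some genes that the rule gives are not reported here. Promoter and miRNA sequences are from RefSeq (GRCh38.p14).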

Additional observations from a re-analysis of the deposited data

Results flagged for a closer look

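Within-group outliers were sought in the 104 genes described, each in both groups of 4 libraries, by Dixon's criterion at the 95% level. Chance sets apart about 1 in 20 groups, and 15 of the 208 groups had a library far from the other 3. Of the 15, 9 were static 4, 4 were IBD 4, 1 was IBD 2 and 1 was static 1. In static 4 the level was high in CCL2 (3.52 CPM), SAA1 (7.44 CPM), MIR3142HG (4.42 CPM), CCL20 (32.7 CPM), CXCL5 (2.21 CPM), LTB (0.955 CPM), CXCL1 (20.7 CPM) and CXCL3 (20.96 CPM), all genes with higher levels in IBD. In the same library EGR1 was low, at 201.5 CPM, while static 1 to 3 lay between 252 and 256 CPM. In each of these 9 genes static 4 deviated towards the IBD libraries. Over all tested genes it was not the static library nearest to them. On the first principal component static 4 lay at 37.5, static 2 and 3 at 7.45 and -10.5, and the IBD libraries between -35.1 and -8.57. Static 1 was high in NDRG1 (305 CPM). IBD 4 was high in MMP7 (5.44 CPM) and ACAT2 (241 CPM) and low in SLC6A9 (30.5 CPM) and EGR4 (0.380 CPM). IBD 2 was high in CCN1 (52.1 CPM).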

How the results depend on the processing

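The 233 genes past the threshold (138 higher, 95 lower) became 790 (359 and 431) with no filter on low counts, 903 (454 and 449) in DESeq2, 124 (70 and 54) in limma with 1 added to the FPKM before the log2, 142 (79 and 63) with 0.1 added and 27 (22 and 5) when tested against a 1.5-fold change. With library size alone in place of TMM they were 241, 127 higher and 114 lower. Leaving out each library in turn gave 86 to 592 genes, 56 to 337 higher and 30 to 418 lower. Without IBD 3 and 4 there were 37 (29 and 8). Without static 2 and 3, a setting chosen after seeing the data, there were 1264 (221 and 1043). Same-numbered libraries did not deviate together (correlations -0.153, 0.065, 0.052 and 0.188 for numbers 1 to 4), so the numbers were not taken as pairs, and with a replicate block 160 genes passed, 103 higher and 57 lower. Fits of 12 and 16 libraries were not run, since the other tables could not be tied to labels.

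Of the 64 described genes past the threshold, 32 passed with each of the 8 libraries left out. None of the 64 changed sign under any setting run. Leaving libraries out could hardly change it, since group ranges did not overlap in nearly all genes past the threshold. Signs changed in genes that did not pass. Without static 1 and 4 the log2 fold changes were 0.65 for KRT7, 0.86 for CD44, 1.19 for COL5A1, 1.07 for OSMR, 0.94 for COL7A1, 0.73 for BASP1, 0.84 for MSN, 0.14 for HLA-B, 0.026 for TNFRSF1A, -0.051 for CDX2 and -0.036 for EPCAM. Without static 2 and 3 they were 0.26 for EGR2 and 0.14 for VIL1, and without IBD 3 and 4 they were 0.011 for TNFRSF1A and -0.056 for CDX2. With single libraries left out, TNFRSF1A ranged from -0.059 to 0.024, EGR2 from -0.39 to 0.20, CDX2 from -0.065 to 0.15 and COL5A1 from -1.41 to 0.092. The causes of these changes were not tested. Genes near 1 CPM rest on about 20 counts a library or fewer, which limits MX1, EGR4, EGR2 and AHR.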
